A study of Mus musculus with 24 samples.

Results

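Type I interferon-stimulated genes are genes whose transcription rises when a cell senses interferon alpha or beta. The set described here holds 33 such genes, chosen by symbol from the 55536 entries of a liver expression table, and 30 of them reached the mean level needed for testing, among 10555 genes tested in all. Livers came from wild type Balb/c mice, an inbred laboratory strain, at 6 weeks of age. The 24 libraries comprised 8 from healthy controls (Con), 8 from mice whose pancreas was acutely inflamed (AP, acute pancreatitis) and 8 from mice with SAP, severe acute pancreatitis, in which organs away from the pancreas can fail. All 3 groups shared strain, genotype, age and tissue, and no transgene or other allele was named. Neither the inducing agent nor the sampling time was named by the labels. They also do not state that each library had its own mouse, and p-values therefore reflect only the spread between libraries, which may be technical.

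Type I interferons bind the receptor pair IFNAR1 and IFNAR2, which activates the kinases JAK1 and TYK2. These phosphorylate STAT proteins, STAT2 among them, which join IRF9 in a complex called ISGF3 that binds interferon-stimulated response elements in the promoters of its targets. In the liver, hepatocytes, Kupffer cells (the resident macrophages) and endothelial cells can all respond. The products block viral replication, sense foreign RNA, modify proteins with the ubiquitin-like ISG15, and amplify or end the response. STAT2, IRF7 and IRF9 are at once parts of the pathway and targets of it.

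The promoter stretches of 7 members are shown because they carry letters of the response element. Among 22 members matched by symbol in the RefSeq promoter table (GRCm38.p6, 250 bases before to 50 bases after the start of a gene, 24 entries), 12 promoters held GAAANNGAAA, a strict form of the response element, on either strand with overlapping matches allowed. The share was 3.44% over all 32851 promoters of the same length in that table. The windows below run 5′ to 3′ on the strand of the gene, lie wholly before its start site in that table, and carry the matches in capitals with up to 15 bases on each side. The 50 bases after the start were found unbroken in an annotated transcript of the gene for Isg15, Ifit1 and Rsad2. For Ifit3, Ifit3b, Stat2 and Bst2 they were not, so these start sites rest on the promoter table alone. They come from Isg15 (chr4:156200860-156200911, minus strand), Ifit1 (chr19:34640770-34640828, plus), Ifit3 (chr19:34583358-34583431, plus), Ifit3b (chr19:34607754-34607827, plus), Rsad2 (chr12:26456548-26456587, minus), Stat2 (chr10:128270261-128270300, plus) and Bst2 (chr8:71537572-71537617, minus).
Isg15: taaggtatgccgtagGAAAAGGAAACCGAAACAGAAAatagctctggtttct
Ifit1: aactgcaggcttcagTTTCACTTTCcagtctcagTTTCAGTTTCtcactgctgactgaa
Ifit3: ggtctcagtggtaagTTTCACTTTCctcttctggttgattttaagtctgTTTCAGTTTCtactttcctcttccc
Ifit3b: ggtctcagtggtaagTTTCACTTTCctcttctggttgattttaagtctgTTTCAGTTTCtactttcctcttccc
Rsad2: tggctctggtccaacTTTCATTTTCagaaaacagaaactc
Stat2: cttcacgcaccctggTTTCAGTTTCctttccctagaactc
Bst2: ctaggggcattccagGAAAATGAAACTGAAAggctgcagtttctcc

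Isg15 held 3 overlapping matches, and the nearest ended 56 bases before the start site. The Ifit3 and Ifit3b windows of 74 bases were identical, with 2 matches each. Oas1a, Oas1g, Oas3, Ifih1 and Ddx58 also held a match, those of Ifih1 and Ddx58 after the start site. The promoters of Ifit2, Oasl1, Oasl2, Cmpk2, Xaf1, Trim25, Irf7, Irf9, Ifi35 and Ifi44 held no match to these letters within the 300 bases. No member promoter held the NF-kB motif GGGANTTTCC (0.411% of all promoters), and 4 of 24 held the STAT motif TTCNNNGAA (8.3% of all promoters). The members without an entry in the promoter table were Dhx58, Ifi27, Mx1, Mx2, Oas1b, Oas2, Parp14, Parp9, Rtp4, Usp18 and Zbp1. A match describes the letters and is not a measured binding site.

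Levels are given in TPM, a unit that divides reads by transcript length and scales every library to the same total, so that genes can be compared with each other. Libraries summed to between 986423 and 993642 TPM with 17140 to 18565 entries above 0, and TPM keeps no read counts, so the sequencing depth is unknown. Means are ± SD over the 8 libraries of a group, and log2 differences are on the log2(TPM + 1) scale with their standard error, which understates changes of low genes. A gene passed where limma, fitted over all 3 groups, gave a Benjamini-Hochberg adjusted p under 0.05. The hepatocyte marker list summed to between 58744 and 100189 TPM in every library, so the tissue label held. Transcripts of the mitochondrial genome made up 12.5 to 22.2% of TPM in controls, 7.81 to 13.7% in AP and 2.80 to 6.26% in SAP.

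Single libraries differed widely in these genes, and 3 sets of libraries need naming before the groups are compared. The AP library numbered 18 was the lowest of its group in 30 of 30 members, against 30.6% of all genes tested. SAP libraries 21, 22, 24 and 25 (SAP 21 to 25 from here on, as no library is numbered 23) all lay above SAP 26 to 29 in 20 of 30 members, against 4.84% of all genes, and all lay below them in 0 of 30, against 28.5%. AP 11, 12 and 13 all lay above the other 5 AP libraries in 22 of 30 members, against 3.4% of all genes, and all below AP 15, 16, 17 and 19 in 1 (Ifi27), against 16.8%. Ifit1, for example, was at 94.1 to 212 TPM in AP 11 to 13 and at 5.67 to 20.5 TPM in AP 15, 16, 17 and 19, and Isg15 at 2769 to 3320.3 and at 700.0 to 1039 TPM. The divisions of SAP and AP by title number were found from these data, so they are described and not tested. The median member, as log2(TPM + 1) minus the control mean, stood at -2.55 in AP 18, between 0.50 and 0.83 in AP 11 to 13 and between -0.61 and -0.27 in the other 4 AP libraries. It stood between -1.15 and 0.79 in the controls, between -0.05 and 0.03 in SAP 21 to 25, and between -1.25 and -0.63 in SAP 26 to 29. Over all genes tested, the same median in AP 18 was -0.08.

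**Figure D1:**
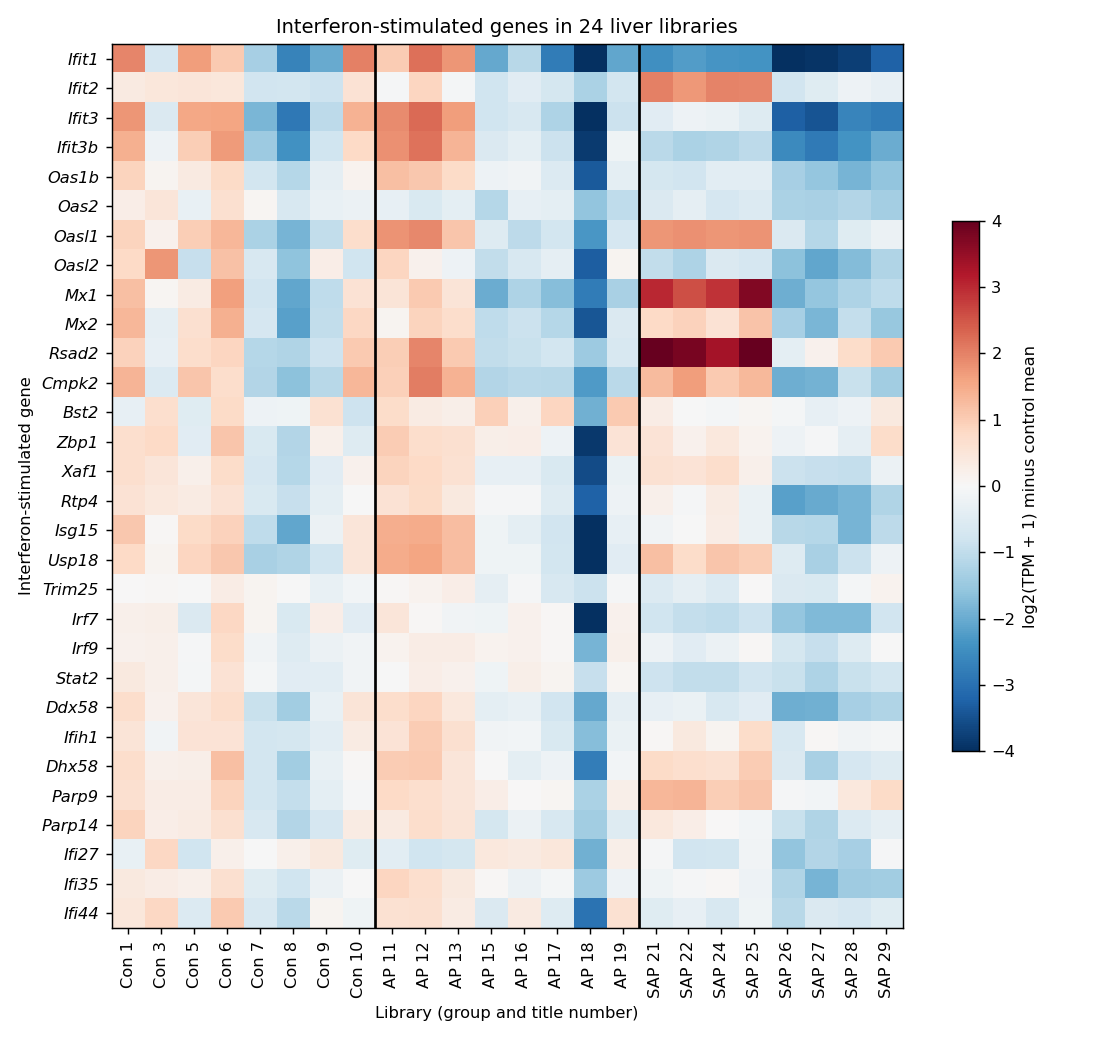
Level of the 30 tested members (y axis) in 24 liver libraries (x axis), as log2(TPM + 1) minus the control mean, with colours limited to -4 and 4 and black lines between Con, AP and SAP. AP 18 is the lowest of its group in all 30 genes, and SAP 21, 22, 24 and 25 all lie above SAP 26 to 29 in 20 of them.

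AP and control livers were compared to ask whether acute pancreatitis changed hepatic interferon-stimulated genes. Only Oas2, one of the oligoadenylate synthetases that sense double-stranded RNA, passed, and it fell (1 of 30 members; 5.48% of all genes passed, 4.35% higher and 1.13% lower). The same count held at an unadjusted p under 0.05 (1 member). The median log2 difference of the 30 members was -0.22, against 0.06 over all genes tested. No member had all AP libraries above all controls (0.644% of all genes) or all below them (0.104%). Without AP 18 the count was 0 of 30, with 3.22% of all genes passing (2.59% higher, 0.635% lower). Without AP 11 to 13, Oas2 and Ifit1 passed, both lower (9.55% of all genes, 7.77% higher and 1.78% lower).

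SAP and control livers were compared for the same genes in severe disease, using the same 8 controls. There 12 of 30 members passed, 2 higher and 10 lower, whereas 74.0% of all genes passed, 44.2% higher and 29.8% lower. Rsad2 and Parp9 rose, and Ifit1, Ifit3b, Oas1b, Oas2, Oasl2, Irf7, Stat2, Ddx58, Ifi27 and Ifi35 fell. The share of members called was thus below the background, and the share that fell (10 of 30) was close to it. The median member differed by -0.34 and the median gene by 0.21. No member had all SAP libraries above all controls (23.2% of all genes), and 2, Irf7 and Stat2, had all SAP libraries below all controls (14.6% of all genes). In bulk liver, fewer cells of a type and less RNA per cell cannot be told apart.

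SAP against AP gave 6 of 30 members, with Ifit2 and Rsad2 higher and Ifit1, Ifit3b, Stat2 and Ifi35 lower, against 72.1% of all genes (41.0% higher, 31.0% lower). No member had every SAP library above every AP library (22.0% of all genes) or below it (15.2%). The median member differed by -0.24 and the median gene by 0.13. Without AP 18 the count was 17 of 30, with 2 higher and 15 lower, and without AP 11 it was 3; the former stood beside 70.9% of all genes (39.7% higher, 31.2% lower). The 6 members were among the 17, and the 11 added were all lower: Ifit3, Oas1b, Oasl2, Bst2, Rtp4, Isg15, Irf7, Irf9, Ddx58, Ifi27 and Ifi44. In that fit, Irf7 fell by 1.26 ± 0.20 and Isg15 by 1.02 ± 0.45 against AP (limma adjusted p = 6.98e-06 and 0.0467). Without AP 11 to 13 the count was again 6, with 5 higher (Ifit2, Oasl1, Mx1, Rsad2 and Parp9) and Stat2 lower, beside 66.4% of all genes (36.5% higher, 29.9% lower), and Ifit1, Ifit3b and Ifi35 no longer passed. Leaving AP 18 out also took SAP against controls from 12 to 16, adding Ifit3, Rtp4, Trim25 and Irf9, all lower (73.9% of all genes, 44.1% higher and 29.8% lower).

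**Figure D2:**
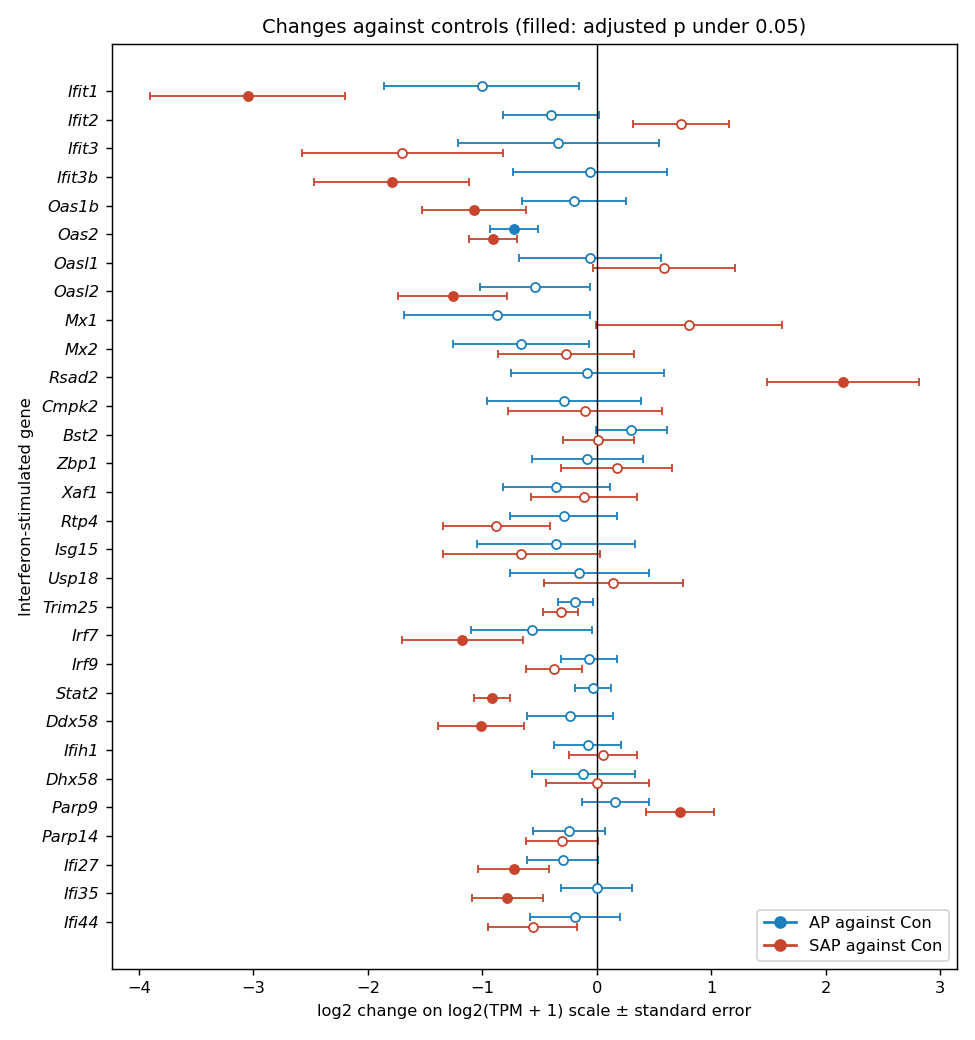
Difference from controls of the 30 tested members on the log2(TPM + 1) scale (x axis) with its standard error, AP in blue and SAP in red, filled where the limma adjusted p was under 0.05. One blue point is filled (Oas2) and 12 red points are, with Rsad2 and Parp9 to the right of 0 and the other 10 to the left; both comparisons share the 8 controls.

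Of 3 transcription factors of the response, Stat2 and Irf7 fell in SAP and Irf9 did not pass. Stat2, a subunit of ISGF3 that carries its activation domain, ranged from 14.6 to 30.5 TPM in controls (median 19.2), from 10.2 to 24.4 in AP (median 21.7) and from 8.15 to 11.8 in SAP (median 10.4). Every SAP library lay below every control, and the 7 AP libraries other than AP 18 lay above every SAP library. Stat2 fell by 0.92 ± 0.16 on the log2 scale from 20.9 ± 5.66 TPM in controls to 10.3 ± 1.14 TPM in SAP (limma adjusted p = 1.17e-05). Against AP (20.4 ± 4.63 TPM) it fell by 0.89 ± 0.16 (limma adjusted p = 2.07e-05), and both calls held in 37 of 37 alternative settings. SAP 21 to 25 (10.5 ± 0.869 TPM) and SAP 26 to 29 (10.2 ± 1.5 TPM) did not separate for this gene.

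Irf7, which amplifies the response by driving interferon alpha genes, ranged from 223 to 597 TPM in controls (median 378), from 8.44 to 478 in AP (median 348) and from 97.9 to 199 in SAP (median 172). All SAP libraries lay below all controls, and the 7 AP libraries other than AP 18 lay above all SAP libraries. It fell by 1.18 ± 0.53 from 356 ± 125 to 155 ± 43.8 TPM in SAP (limma adjusted p = 0.0481). This call was the least steady of the 12, since it held in 12 of 37 alternative settings (adjusted p from 9.92e-06 to 0.264). Without AP 18 the same difference had a standard error of 0.20, and limma gave an adjusted p of 9.92e-06.

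Irf9, the DNA-binding part of ISGF3, was 10.4 ± 3.30 (Con), 10.4 ± 3.46 (AP) and 7.73 ± 1.99 TPM (SAP). Its SAP difference was -0.38 ± 0.24 (limma adjusted p = 0.165) and passed without AP 18 (adjusted p = 0.0295). Its control libraries ran from 6.75 to 17.6 TPM and those of SAP from 4.84 to 10.5 TPM, so they overlapped.

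The IFIT genes, which encode proteins that bind viral RNA that lacks the cap methylation of the host, did not move together in SAP. Ifit1 ranged from 6.35 to 188 TPM in controls (median 61.4), from 0.52 to 212 in AP (median 15.4) and from 1.85 to 8.96 in SAP (median 5.70). Controls and AP each held libraries over 90 TPM and libraries under 12 TPM, while no SAP library reached 9 TPM. Ifit1 fell by 3.05 ± 0.85 on the log2 scale from 84.3 ± 78.7 TPM in controls to 5.35 ± 3.04 TPM in SAP (limma adjusted p = 0.00246), the largest difference among the members tested. Against AP (63.7 ± 81.6 TPM) it fell by 2.05 ± 0.85 (limma adjusted p = 0.0348). Without AP 11 to 13 the difference was -0.45 ± 0.75 (limma adjusted p = 0.610). That call held in 26 of 37 settings and was lost without any of AP 11, 12, 13 or SAP 26, 27 or 28.

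Ifit3b ranged from 2.39 to 59.1 TPM in controls (median 22.8), from 0.29 to 81.0 in AP (median 14.2) and from 1.59 to 7.94 in SAP (median 5.08). It fell by 1.79 ± 0.67 against controls (limma adjusted p = 0.0193) and by 1.74 ± 0.67 against AP (limma adjusted p = 0.0240), with overlap between the groups in both. The call against AP was lost without any of AP 11, 12 or 13. Its neighbour Ifit3 had the higher level, 148 ± 124 (Con), 151 ± 161 (AP) and 38.9 ± 31.3 TPM (SAP), and did not pass (-1.70 ± 0.88, limma adjusted p = 0.0833). Of the 50-base windows of Ifit3, 51.24% also occur in Ifit3b, so the split of reads between both genes is uncertain.

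Ifit2 went the other way. It ranged from 0.53 to 3.13 TPM in controls (median 2.62), from 0.15 to 3.96 in AP (median 0.85) and from 0.60 to 10.2 in SAP (median 4.72). SAP 21 to 25 lay between 8.07 and 10.2 TPM, above every control and AP library, and SAP 26 to 29 between 0.60 and 1.36 TPM, inside both ranges. Against AP it rose by 1.13 ± 0.42 (limma adjusted p = 0.0189), and against controls it differed by 0.73 ± 0.42 (limma adjusted p = 0.118). The rise against AP rested on SAP 21 to 25: without them the difference was -0.049.

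The OAS family is named for enzymes that make oligoadenylates to activate RNase L, although some of its mouse members lack that activity. Of 7 OAS genes 4 were tested and 3 fell in SAP, beside 29.8% of all genes lower. Oas2 ranged from 1.26 to 4.47 TPM in controls (median 2.38), from 0.18 to 1.81 in AP (median 1.5) and from 0.38 to 1.77 in SAP (median 0.895). The groups overlapped at the low end of the controls, with 3 of 8 AP and 5 of 8 SAP libraries below every control. Oas2 fell by 0.72 ± 0.21 in AP (from 2.68 ± 1.11 to 1.23 ± 0.634 TPM, limma adjusted p = 0.0432) and by 0.90 ± 0.21 in SAP (0.958 ± 0.549 TPM, limma adjusted p = 0.000459). The AP call was lost without AP 18 and without any of Con 1, 3, 6, 7, 10, AP 15, 17 or 19, with adjusted p up to 0.106 over 37 alternatives.

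Oas1b, whose product restricts flaviviruses in strains with an intact copy, ranged from 12.4 to 54.0 TPM in controls (median 31.6), from 1.90 to 67.6 in AP (median 25.5) and from 7.29 to 21.5 in SAP (median 13.7). It fell by 1.07 ± 0.46 in SAP (limma adjusted p = 0.0370), and SAP 26 to 29 lay below every control. The call held in 25 of 37 settings and was lost without any of Con 1, 3, 5, 6, 10 or SAP 26 to 29, and without all of SAP 26 to 29 the difference was -0.58. Oasl2, an OAS-like gene, ranged from 5.77 to 69.4 TPM in controls (median 18.0), from 1.13 to 37.1 in AP (median 16.0) and from 3.97 to 12.9 in SAP (median 8.04). It fell by 1.26 ± 0.48 in SAP (limma adjusted p = 0.0205), with 3 SAP libraries below every control, and did not pass without Con 3.

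The related Oasl1, which limits translation of Irf7, was 13.8 ± 9.51 (Con), 16.2 ± 16.4 (AP) and 22.6 ± 17.1 TPM (SAP) and did not pass (0.59 ± 0.62, limma adjusted p = 0.397). Its SAP 21 to 25 libraries were tightly grouped at 38.5 ± 0.802 TPM, above every control, while SAP 26 to 29 were at 6.67 ± 1.87 TPM. Oas1a, Oas1g and Oas3 stayed under the mean needed for testing. Oas1a and Oas1g never exceeded 0.08 TPM, and 57.57% of the windows of Oas1a also occur in Oas1g. Oas3 ran from 0.89 to 2.15 TPM in controls, 0.11 to 1.39 in AP and 0.25 to 0.93 in SAP, and fell by 0.53 ± 0.15 in SAP where no filter was applied (limma adjusted p = 0.0060).

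The Mx genes encode dynamin-like GTPases that trap viral nucleocapsids, and many laboratory strains carry defective copies. Mx1 ranged from 0.83 to 22.6 TPM in controls (median 7.91), from 0.11 to 14.8 in AP (median 2.17) and from 0.98 to 99.6 in SAP (median 23.7). SAP 21 to 25 lay between 44.6 and 99.6 TPM, above all controls, and SAP 26 to 29 between 0.98 and 2.83 TPM, within the control range. With that spread Mx1 did not pass (0.80 ± 0.81, limma adjusted p = 0.376). The ratio of the means of the SAP sets, 34.0, was the largest among the members. Mx2 was 22.2 ± 16.4 (Con), 13.9 ± 10.7 (AP) and 18.5 ± 14.1 TPM (SAP) (-0.27 ± 0.60 in SAP, limma adjusted p = 0.694).

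Rsad2, which encodes viperin, an enzyme that makes a chain-terminating nucleotide against viral polymerases, rose in SAP. It ranged from 0.32 to 5.19 TPM in controls (median 2.66), from 0.11 to 10.6 in AP (median 0.89) and from 1.32 to 61.8 in SAP (median 17.3). SAP 21 to 25 lay between 29.5 and 61.8 TPM, over every other library, whereas SAP 26 to 29 lay between 1.32 and 5.22 TPM. Rsad2 rose by 2.15 ± 0.67 from 2.62 ± 2.11 to 24.6 ± 24.6 TPM (limma adjusted p = 0.00549) and by 2.23 ± 0.67 against AP (2.995 ± 3.70 TPM, limma adjusted p = 0.00437). Without SAP 21 to 25 the difference from controls was 0.39, and it did not pass.

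Cmpk2, the mitochondrial nucleotide kinase that lies next to Rsad2 on chromosome 12, did not follow it in SAP (6.57 ± 5.50 TPM in controls, 6.58 ± 8.00 in AP, 7.14 ± 6.75 in SAP; -0.10 ± 0.67, limma adjusted p = 0.900). Within SAP both genes separated the sets, with Cmpk2 at 13.2 ± 2.60 TPM in SAP 21 to 25 and 1.05 ± 0.733 TPM in SAP 26 to 29. Bst2, which encodes tetherin, a membrane protein that holds budding virus, was among the most abundant members. It was at 527 ± 219 (Con), 691 ± 285 (AP) and 499 ± 87.2 TPM (SAP), and did not pass in SAP (0.01 ± 0.31, limma adjusted p = 0.975).

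Zbp1, a sensor of Z-form nucleic acid that can trigger necroptosis, was 88.8 ± 48.2 (Con), 97.3 ± 46.5 (AP) and 90.4 ± 23.9 TPM (SAP) (0.17 ± 0.48, limma adjusted p = 0.754). Xaf1, which antagonises the apoptosis inhibitor XIAP, was 105 ± 43.6, 99.7 ± 59.2 and 99.0 ± 46.1 TPM in the same order (-0.11 ± 0.46, limma adjusted p = 0.835). Neither differed beyond the spread between libraries. Rtp4, a chaperone of membrane receptors, was 46.2 ± 17.0 (Con), 43.8 ± 22.2 (AP) and 28.8 ± 19.0 TPM (SAP) (-0.88 ± 0.47, limma adjusted p = 0.0928), with SAP 26 to 29 all below every control. Rtp4 overlaps other annotated genes on both strands, so its level is uncertain.

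**Figure D3:**
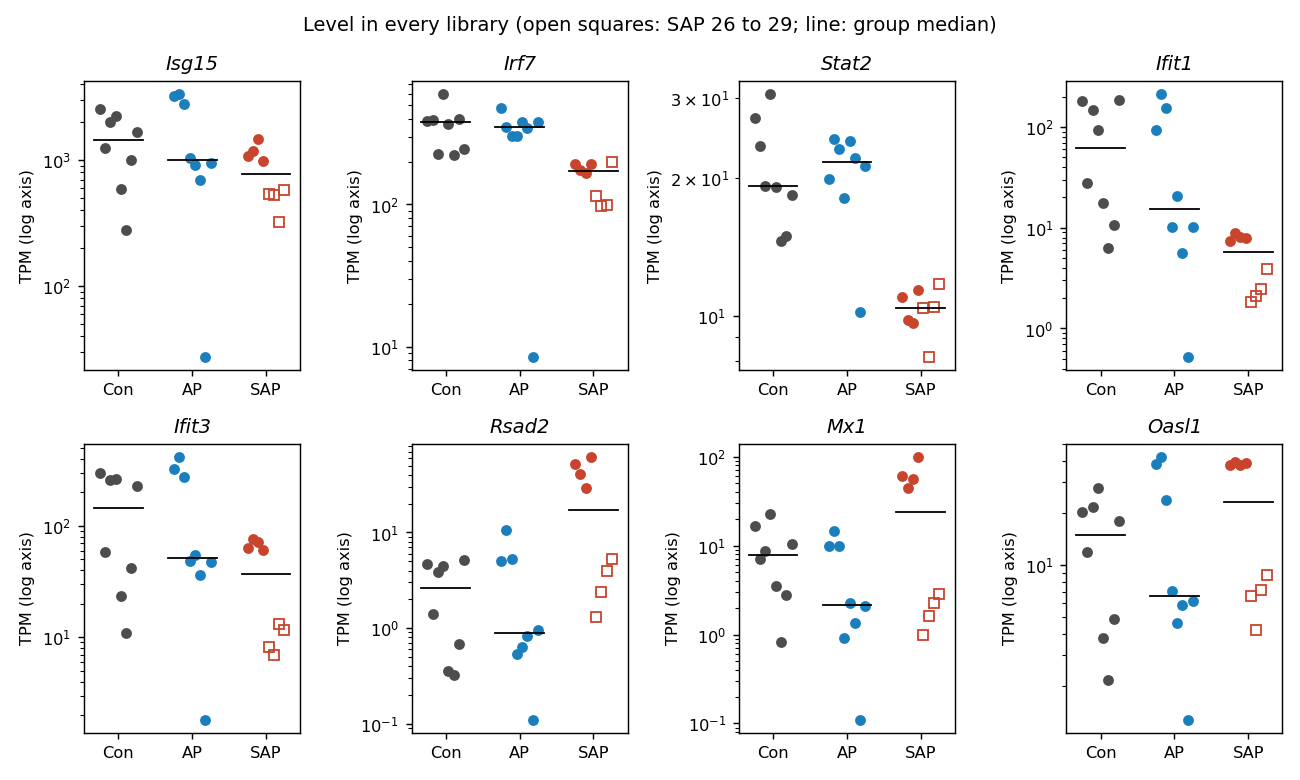
TPM (log axis) of 8 members in every library of Con, AP and SAP, with open squares for SAP 26 to 29 and lines at group medians. Stat2 and Irf7 in SAP lie below all controls, Rsad2 and Mx1 in SAP 21 to 25 lie above all controls, and the lowest blue point in each panel is AP 18.

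Isg15, the ubiquitin-like modifier itself, was the most abundant member by mean in controls and varied widely. It ranged from 277 to 2520.2 TPM in controls (median 1451), from 27.5 to 3320.3 in AP (median 995) and from 325 to 1468 in SAP (median 781). The groups overlapped, and the SAP difference (from 1442 ± 801 to 834 ± 396 TPM, -0.66 ± 0.69) did not pass (limma adjusted p = 0.390). Usp18, the protease that removes ISG15 and blocks IFNAR2 signalling, was 52.0 ± 29.7 (Con), 62.1 ± 49.99 (AP) and 58.1 ± 34.7 TPM (SAP) (0.14 ± 0.61, limma adjusted p = 0.839). Trim25, a ligase that ubiquitinates RIG-I, was at 8.24 ± 1.05, 7.33 ± 2.09 and 6.54 ± 1.66 TPM, and its SAP difference of -0.31 ± 0.15 missed the threshold (limma adjusted p = 0.0650).

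Among the cytoplasmic RNA sensors, Ddx58 (RIG-I) fell in SAP while Ifih1 (MDA5) and Dhx58 (LGP2) did not pass. Ddx58 ranged from 3.29 to 17.4 TPM in controls (median 13.2), from 1.74 to 19.4 in AP (median 7.97) and from 1.89 to 8.31 in SAP (median 5.03). It fell by 1.01 ± 0.38 from 11.6 ± 5.48 to 5.13 ± 2.65 TPM (limma adjusted p = 0.0180), with 2 SAP libraries below every control. Without SAP 26 to 29 the difference was -0.42. Ifih1 stood at 6.77 ± 2.80 (Con), 6.89 ± 4.04 (AP) and 6.83 ± 2.18 TPM (SAP) (0.06 ± 0.30, limma adjusted p = 0.874). Dhx58 stood at 21.5 ± 11.9, 21.7 ± 12.9 and 21.9 ± 12.2 TPM (0.00 ± 0.45, limma adjusted p = 0.997), and its equal SAP mean joined 32.8 ± 4.31 TPM in SAP 21 to 25 with 10.9 ± 2.59 TPM in SAP 26 to 29.

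Parp9, an ADP-ribosyltransferase that acts with the ligase DTX3L, ranged from 4.16 to 17.7 TPM in controls (median 9.95), from 3.12 to 16.2 in AP (median 11.0) and from 8.34 to 24.4 in SAP (median 17.5). SAP 21 to 25 lay above every control, and SAP 26 to 29 lay inside the control range. It rose by 0.73 ± 0.29 from 9.92 ± 4.71 to 16.7 ± 6.40 TPM in SAP (limma adjusted p = 0.0285). The call was lost after quantile normalization, median centring or removal of mitochondrial transcripts, and over 37 alternatives the adjusted p reached 0.512. It was also lost without any of Con 7, 8, 9 or SAP 21, 22 or 25. Dtx3l, named after its values were seen because it overlaps Parp9 on the other strand, fell in SAP from 4.11 ± 1.19 to 2.22 ± 0.948 TPM (limma adjusted p = 0.00323); whether reads were counted by strand is not given. Parp14, a related enzyme, was 4.08 ± 2.27 (Con), 3.31 ± 2.05 (AP) and 2.96 ± 1.44 TPM (SAP) (-0.30 ± 0.32, limma adjusted p = 0.393).

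Of the genes named only as interferon-inducible, Ifi27 and Ifi35 fell in SAP. Ifi27, a small hydrophobic membrane protein, ranged from 104 to 323 TPM in controls (median 196), from 47.6 to 254 in AP (median 177) and from 61.4 to 178 in SAP (median 108). It fell by 0.72 ± 0.31 (limma adjusted p = 0.0382), with 3 SAP libraries below every control. The call held in 24 of 37 settings and was lost without any of Con 3, 6, 7, 8, 9 or SAP 22, 24, 26, 27 or 28. Ifi35, a leucine zipper protein, ranged from 42.2 to 117 TPM in controls (median 78.7), from 26.2 to 135 in AP (median 72.9) and from 19.7 to 76.1 in SAP (median 47.8). It fell by 0.78 ± 0.31 against controls (limma adjusted p = 0.0259) and by 0.78 ± 0.31 against AP (limma adjusted p = 0.0268). SAP 26 to 29 lay below every control, and without them the difference from controls was -0.099. The call against controls was also lost without any of Con 6 or SAP 27, 28 or 29, and that against AP without any of AP 11, 12 or SAP 26 to 29. Ifi44 was 12.4 ± 6.89 (Con), 11.8 ± 6.21 (AP) and 7.19 ± 1.48 TPM (SAP) (-0.56 ± 0.39, limma adjusted p = 0.198).

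Within SAP, the members fell into those that separated SAP 21 to 25 from SAP 26 to 29 and those that did not. The 20 that separated were the 4 IFIT genes, Oas1b, Oas2, Oasl1, both Mx genes, Rsad2, Cmpk2, Xaf1, Rtp4, Isg15, Usp18, Ddx58, Dhx58, both PARP genes and Ifi35. Irf7, Irf9 and Stat2, the transcription factors, were among the 10 that did not, with Oasl2, Bst2, Zbp1, Trim25, Ifih1, Ifi27 and Ifi44. The ratio of the set means ran from 0.924 (Trim25) to 34.0 (Mx1), with Rsad2 at 14.2, Cmpk2 at 12.6 and Ifit2 at 9.14.

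Set against the controls, SAP 21 to 25 and SAP 26 to 29 differed in which members left the control range. No member lay above every control in either set and below every control in the other. All of SAP 21 to 25 lay above every control in 5 members (Ifit2, Oasl1, Mx1, Rsad2 and Parp9; 26.2% of all genes), below every control in 2 (Irf7 and Stat2; 25.4%) and within the control range in 18 (15.8%). All of SAP 26 to 29 lay above every control in 0 members (35.6% of all genes), below every control in 7 (Ifit1, Oas1b, Oas2, Rtp4, Irf7, Stat2 and Ifi35; 16.6%) and within the control range in 11 (12.8%). Fitted with the controls and AP, SAP without 26 to 29 gave 6 members, 5 higher (Ifit2, Oasl1, Mx1, Rsad2 and Parp9) and Stat2 lower, beside 71.6% of all genes (37.0% higher, 34.6% lower). The same 6 passed against AP (69.2% of all genes, 33.3% higher and 35.9% lower). SAP without 21 to 25 gave 11 members, all lower (Ifit1, Ifit3, Ifit3b, Oas1b, Oas2, Oasl2, Rtp4, Stat2, Ddx58, Ifi27 and Ifi35), beside 73.8% of all genes (49.7% higher, 24.1% lower). Against AP it gave 9, all lower (71.0% of all genes, 46.5% higher and 24.6% lower). Stat2 passed in both fits, by -0.90 ± 0.20 and -0.94 ± 0.21. Since the division was found from these data, these counts describe the libraries.

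Marker lists of other cell types also varied between the SAP libraries. Neutrophil markers summed to 128 to 262 TPM in SAP 21 to 25 and to 150 to 360 TPM in SAP 26 to 29, against 2.71 to 28.6 TPM in controls and 3.18 to 7.58 TPM in AP, and all 4 tested of 10 rose in SAP. Kupffer cell markers summed to 109 to 214 and 98.1 to 136 TPM in the SAP sets, and 110 to 420 TPM in controls, with 6 of 9 tested markers lower in SAP and Marco higher. Sinusoidal endothelial markers summed to 25.9 to 49.0 TPM in SAP 21 to 25 and 55.8 to 84.3 TPM in SAP 26 to 29, without overlap, and to 72.1 to 144 TPM in controls. Its tested members went both ways in SAP, with Stab2 and Lyve1 higher and Stab1, Clec4g, Fcgr2b and Dnase1l3 lower. All these marker calls were against controls, where 44.2% of all genes passed higher and 29.8% lower. Markers of plasmacytoid dendritic cells, the main producers of interferon alpha, never summed above 3.34 TPM. The part of these cells in the levels of the members was not tested.

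The pair Rsad2 and Ifit1 showed the change in composition within single libraries, where a scaling factor cancels. Rsad2 was below Ifit1 in all 16 control and AP libraries, with ratios from 0.0202 to 0.212. In SAP it was above Ifit1 in 7 of 8 libraries, with ratios from 0.714 to 7.81, and SAP 26 was the exception. The SAP ratios, including those of SAP 26 to 29 (0.714 to 1.62), did not overlap those of the other groups. The pair was chosen after its values were seen, so it is given without a test.

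**Figure D4:**
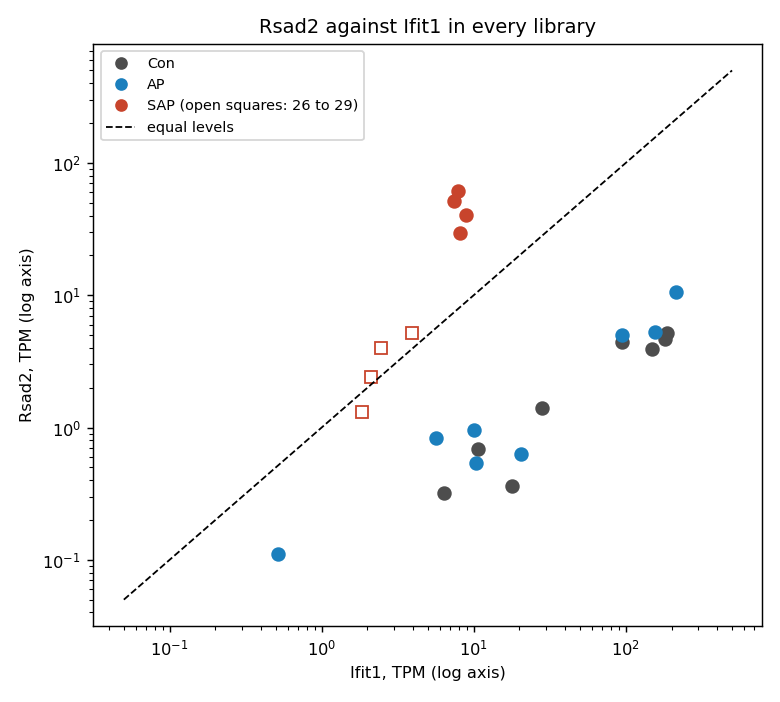
Rsad2 against Ifit1 in every library, both in TPM on log axes, with a dashed line where the levels are equal and open squares for SAP 26 to 29. All control (grey) and AP (blue) points lie below the line, and 7 of the 8 SAP points (red) lie above it.

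AP 18 was low across the members. It lay below 0.5 times the next-lowest AP library in 28 of 30 members (2.56% of all genes), the exceptions being Trim25 and Stat2, and below 0.2 times in 17 of 30 (0.673%). Irf7 was at 8.44 TPM in AP 18 and between 303 and 478 TPM in the other 7 AP libraries. Isg15 was at 27.5 TPM against 700.0 to 3320.3 TPM, and Bst2 at 129 TPM against 567 to 1005 TPM. Marker sums of AP 18 lay within the range of the other AP libraries for Kupffer cells (149 TPM, others 77.4 to 273), neutrophils (4.40, others 3.18 to 7.58), monocytes (17.0, others 10.0 to 17.2) and endothelium (90.0, others 54.8 to 109.8). Those of T and NK cells (0.93 TPM, others 1.22 to 2.94) and of hepatocytes (81001 TPM, others 83842 to 99195) lay below it. The mitochondrial share of AP 18 was 9.57%.

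**Figure D5:**
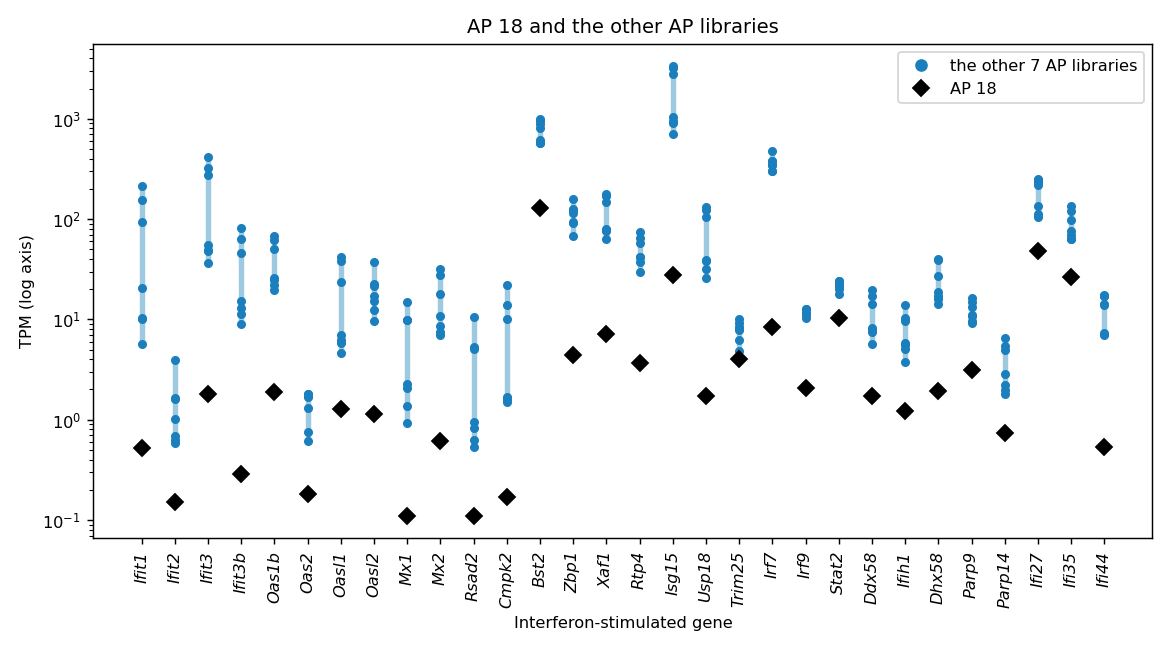
TPM (log axis) of the 30 tested members in AP 18 (black diamonds) and in the other 7 AP libraries (blue points, joined by a bar over their range). The diamond lies below the bar in all 30 members, and for Irf7 it is at 8.44 TPM under a bar from 303 to 478 TPM.

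Controls also differed among themselves. Con 8 was the lowest control in 24 of 30 members (10.5% of all genes), and Con 6 the highest in 18 (32.5%). In AP, library 12 was the highest in 19 members (11.4% of all genes). The highest library was at least 5 times the lowest in 16 members among controls (12.2% of all genes), in 28 among AP (10.8%) and in 11 among SAP (17.7%). Without AP 18 the AP count was 9 (8.58% of all genes). That count leaves out the lowest AP library while the 16 among controls keeps Con 8, so the groups are not ranked by it. Ifit1 in controls split into 94.6 to 188 TPM in Con 1, 5, 6 and 10 and 6.35 to 28.1 TPM in the other 4 libraries.

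Upstream of the members, the interferons themselves were at or near 0. Of 10 ligand genes none reached the testing level, 7 (Ifnb1, Ifna1, Ifna2, Ifna4, Ifna5, Ifnl2 and Ifnl3) were listed at 0 in all libraries, and the list summed to at most 0.33 TPM. Of 10 tested genes of receptors and JAK-STAT signalling, 6 rose and 3 fell in SAP, beside 44.2% of all genes higher and 29.8% lower, and 0 passed in AP. Both receptor chains passed in opposite directions: Ifnar1 rose from 6.99 ± 1.28 to 11.5 ± 1.96 TPM (limma adjusted p = 1.68e-05), and Ifnar2 fell from 55.3 ± 11.8 to 44.3 ± 2.32 TPM (limma adjusted p = 0.0197). Jak1 rose from 4.85 ± 1.18 to 15.7 ± 4.65 TPM, and Stat3, the main factor of interleukin 6 signalling, from 6.48 ± 1.85 to 49.2 ± 15.7 TPM (limma adjusted p = 3.25e-09 and 6.47e-12). Ifngr1, a chain of the interferon gamma receptor, rose from 2.29 ± 0.788 to 7.87 ± 2.38 TPM (limma adjusted p = 2.12e-08). The receptor chain genes Ifnar1 and Ifnar2 in AP 18 were at 5.17 and 54.4 TPM, the lowest of AP. Both genes were named after their values were seen.

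Of 13 tested genes that sense nucleic acids or induce interferon, 7 rose and 2 fell in SAP, a share near the 74.0% of all genes called, and 0 passed in AP. Tbk1, the kinase that activates IRF3, rose from 4.54 ± 1.75 to 17.9 ± 5.99 TPM, and Myd88, an adaptor of Toll-like receptors, from 7.54 ± 1.83 to 26.1 ± 3.45 TPM (limma adjusted p = 7.71e-08 and 2.93e-10). Irf3, the factor that starts interferon beta transcription, fell from 50.2 ± 9.06 to 6.12 ± 3.12 TPM (limma adjusted p = 1.20e-12). Among 12 feedback inhibitors, 8 rose and Irf2 fell, again beside 44.2% and 29.8% of all genes. Socs1, which blocks JAK kinases, rose from 0.82 ± 0.621 to 12.4 ± 4.10 TPM, and Socs3 from 4.36 ± 1.69 to 55.1 ± 13.8 TPM (limma adjusted p = 1.64e-11 and 7.84e-12). Ptpn2, a phosphatase of JAK and STAT proteins, rose from 2.75 ± 0.565 to 32.0 ± 9.17 TPM (limma adjusted p = 5.17e-15). The feedback list summed to 404 to 417 TPM in SAP 21 to 25 and to 160 to 246 TPM in SAP 26 to 29. Of its 12 genes, 2 (Trex1 and Samhd1) had all of SAP 21 to 25 above SAP 26 to 29, a larger share than the 4.84% of all genes. Another 2, Irf2 and Ptpn6, had them all below (28.5%), and Socs1, Socs3 and Ptpn2 overlapped between the sets. Trex1, Samhd1 and Ptpn6 were named after their values were seen.

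Other interferon-regulated genes gave a mixed picture beside the members. Of 42 tested genes in a list of other interferon-stimulated genes, 9 rose and 15 fell in SAP, fewer in all than the 74.0% of all genes called, with a median of -0.32, and 1, Trim30a, fell in AP. Ifitm2 rose from 292 ± 125 to 1413 ± 130 TPM and Slfn2 from 3.53 ± 1.75 to 17.0 ± 4.28 TPM, while Ifi30, a lysosomal thiol reductase, fell from 35.3 ± 13.9 to 5.05 ± 1.21 TPM (limma adjusted p = 9.27e-11, 1.04e-09 and 4.07e-12). Of 20 tested genes of the guanylate-binding proteins, immunity-related GTPases and other targets of interferon gamma, 11 rose and 4 fell in SAP, close to that share, with a median of 1.22. Gbp2 rose from 2.24 ± 2.31 to 57.5 ± 24.9 TPM, Cxcl9 from 13.5 ± 18.3 to 453 ± 94.1 TPM and Cxcl11 from 1.71 ± 1.35 to 16.7 ± 9.54 TPM (limma adjusted p = 3.21e-11, 9.62e-12 and 1.03e-07). Ifng itself reached at most 0.33 TPM. AP 18 was the lowest AP library in 35 of the 42 and in 20 of the 20 genes of these lists, beside 30.6% of all genes. SAP 21 to 25 all lay above SAP 26 to 29 in 17 of the 42 and 10 of the 20 (4.84% of all genes). They all lay below in 0 of either list (28.5%), so the division of SAP was not particular to the members.

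Calls in SAP were also counted by promoter. Of the 9 tested members whose promoter held GAAANNGAAA, 1 rose and 4 fell against controls (Rsad2 up, and Ifit1, Ifit3b, Stat2 and Ddx58 down). Of the 10 tested members whose promoter held no match, 0 rose and 3 fell (Oasl2, Irf7 and Ifi35). Both counts lie below the 74.0% of all genes called, and nothing about the motif is read from them. Rsad2 and Ifit1, printed above, both carry the element, 110 and 75 bases before the start site, and went in opposite directions.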

How the data were processed

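RNA from frozen livers was sequenced with standard Illumina libraries, per the labels' protocols. The authors deposited 1 table of 55536 entries by 24 libraries in TPM. The unit was read from the values: all columns sum to about the same total (986423 to 993642), and among genes listed at 0 in at least 1 library the smallest value above 0 fell with transcript length (median 0.17 TPM for genes of 300 to 600 bases, 0.01 TPM for 3000 to 6000 bases). The submitters' processing notes name edgeR, with no version and no role. For the aligner, genome build, annotation and strandedness, each is not given in the sources used here. TPM is relative to a fixed total, so a rise of abundant transcripts lowers all others, and count tests and counting intervals could not be had.

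All columns were mapped by title (0 unmapped). On log2(TPM + 1) values of the 10555 genes whose mean reached 1 TPM, group means were compared with limma 3.58.1 (R 4.3.3), with 1 variance per gene over all 24 libraries and a trend on mean level, with Benjamini-Hochberg adjustment over all genes tested. The fit was tested on simulated data. The members and lists were chosen with earlier results of these data known. Members were described by role, each with values in every group where tested. From each other list, the 3 tested genes (2 for markers) ranked first by limma's test across groups could be named, and other names are said to be chosen after their values were seen. Transcripts were compared in windows of 50 bases in GENCODE M21, which held 99.81% of the names, and levels with at least 20% of shared windows, or of overlapping genes, are uncertain. These overlaps touch Parp9, Irf7, Dhx58, Oas2, Oasl1, Usp18, Ifi35, Rtp4, Irf9 and Parp14. Alternatives were other normalizations, filters, pseudocounts, variance models and sets of libraries, 1 set (without AP 11 to 13) chosen after seeing the data. One item is not reported here.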

Additional observations from a re-analysis of the deposited data

Results flagged for a closer look

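Each member was checked in each group for a library far from the rest, by the gap to the nearest value over the range of the group on the log2(TPM + 1) scale, against Dixon's 95% critical value. Of 90 such checks 16 exceeded the limit, and chance alone gives about 1 in 20 groups. All 16 were low values of AP 18. The transcription factors stood at 8.44 TPM (Irf7), 2.05 TPM (Irf9) and 10.24 TPM (Stat2). The ISG15 pathway stood at 27.47 TPM (Isg15) and 1.74 TPM (Usp18). The OAS and Mx genes stood at 1.90 TPM (Oas1b), 1.13 TPM (Oasl2) and 0.62 TPM (Mx2). Other effectors stood at 128.71 TPM (Bst2), 4.37 TPM (Zbp1), 7.08 TPM (Xaf1) and 3.65 TPM (Rtp4). The remaining genes stood at 1.91 TPM (Dhx58), 3.12 TPM (Parp9), 26.23 TPM (Ifi35) and 0.53 TPM (Ifi44). These values share 1 library, so the 16 are not independent of each other.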

How the results depend on the processing

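Values of 30 members in 3 comparisons were recomputed under 37 alternatives, 1 of them (without AP 11, 12 and 13) chosen after seeing the data. Of 19 called values 1 changed sign: Ifit2 in SAP against AP was -0.049 without SAP 21, 22, 24 and 25. Of 71 values that were not called, 50 changed sign in at least 1 alternative. In AP against controls the 1 passing member (Oas2) became 0 with a pseudocount of 0.1, with no filter, with array weights and with the 2 groups alone, and 2 without AP 11, 12 and 13, and leaving out 1 library gave 0 to 1. In SAP against controls the 12 became 7 (4 higher and 3 lower) with array weights, which called Mx1 and Ifit2 higher. All genes stood at 4618 higher and 3211 lower there, near the 4661 and 3147 of the first fit. The count was 6 without SAP 26 to 29 (7558 of all 10555 genes). Leaving out 1 library gave 8 (without Con 3, Con 6 or SAP 27, with 7772 to 7797 genes) to 16 (without AP 18, with 7799). In SAP against AP the 6 became 10 with median centring (7986 of all 10555 genes) and 3 with no filter (10456 of 26977). Leaving out 1 library gave 3 (without AP 11, with 7456 genes) to 17 (without AP 18, with 7485). The causes were not tested. Scaling moved the balance of calls. The median gene in SAP against controls stood at 0.21 in TPM, 0.03 after quantile normalization and -0.06 after median centring. All-gene calls went from 4661 higher and 3147 lower to 4264 and 3926, or 3888 and 4300, and those of members from 2 higher and 10 lower to 1 and 14 under both. In SAP against AP, 4332 higher and 3275 lower became 3708 and 4278 with median centring (members 2 and 4 became 1 and 9), and members became 2 and 7 with quantile normalization and 3 and 1 without the 50 most abundant genes. In AP against controls, 459 higher and 119 lower became 388 and 265 with quantile normalization, 198 and 225 without the 50 most abundant genes and 211 and 173 without mitochondrial transcripts. For all genes in AP against controls, 578 calls became 1006 with median centring, 384 without mitochondrial transcripts, 222 with no filter, 1458 with array weights and 1008 without AP 11, 12 and 13. No paired analysis was possible because the groups share no replicate numbers. TPM keeps no depth, so precision rests on the 8 libraries of each group.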
